A study of Homo sapiens with 24 samples.

Results

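The common effect of dexamethasone was measured in HepG2, a human hepatocellular carcinoma line, by setting all 12 libraries of dexamethasone-treated cells against all 12 libraries of vehicle-treated cells, which together are the 24 of 24 libraries of the series. The cells had lost their own glucocorticoid receptor gene, NR3C1, and carried in its place a Ty1-tagged receptor from a doxycycline-inducible lentivirus. The receptor put back was K154R, K154Q or wild type (WT). Replacing lysine by arginine gives a residue that cannot be acetylated, and glutamine resembles acetylated lysine. Each genotype had 4 replicates with 1 µM dexamethasone, a synthetic glucocorticoid, and 4 with the ethanol vehicle, in both cases for 6 h.

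All groups shared the rest of the protocol: 0.3 to 1 µg/mL doxycycline for 24 h, with doses chosen to match receptor protein, and then 24 h in charcoal-stripped medium, which holds little steroid. The receptor in every group was therefore a transgene expressed from a virus and not the gene in its own place. Replicates came, per the labels, from 2 experiments with 2 transductions each, and the sources used here do not tie a replicate number to either. A p-value thus measures the spread between these cultures. Genotype and replicate number were covariates of the test, so the effect was read within numbers.

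Glucocorticoids cross the cell membrane and bind a receptor held in the cytoplasm by HSP90 and its cochaperones. The loaded receptor moves to the nucleus, binds DNA as a dimer at inverted repeats of a short motif, mostly far from promoters, and raises transcription of nearby genes. It also lowers genes, in part by contacts with other transcription factors such as NF-kB and AP-1. In the liver these hormones are known for raising enzymes of gluconeogenesis, amino acid breakdown and fat handling, and for inducing their own feedback regulators.

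Library totals were 27485127 to 41947724 counts with dexamethasone (median 30564918.5) and 23863672 to 42072021 with vehicle (median 33311418). Transcripts of the mitochondrial genome took 6.07% to 9.16% of the counts with dexamethasone (median 8.02%) and 5.16% to 8.53% with vehicle (median 7.6%). All 12 hepatocyte markers were expressed, with albumin (ALB) at a median of 18185 CPM (counts scaled to the same library size) with dexamethasone and 17673 CPM with vehicle. Of 7 leukocyte markers, PTPRC and CD3E had 0 counts in all libraries, while LYZ had a median of 690 CPM with dexamethasone and 781 CPM with vehicle. The 3 leukocyte markers that could be tested summed to 484 to 973 CPM with dexamethasone and 496 to 1016 CPM with vehicle, and 3 of 9 fibroblast markers to 24.5 to 44.8 CPM with dexamethasone and 25.2 to 43.3 CPM with vehicle. Of 6 endothelial markers PECAM1 alone could be tested, at 0.763 to 2.12 CPM with dexamethasone and 1.09 to 1.98 CPM with vehicle. None of these 7 genes passed the test (edgeR). NR3C1, the receptor itself, averaged 86.4 ± 11.7 CPM with dexamethasone and 89.3 ± 11.99 CPM with vehicle (SD, n = 12 each). Its log2 fold change of -0.05 (SE 0.03) did not pass the test (edgeR quasi-likelihood test, Benjamini-Hochberg adjusted p = 0.435).

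Dexamethasone raised more genes than it lowered, and it raised some of them far more. Of 16196 genes tested, 762 (4.70%) changed at an adjusted p under 0.05, of which 563 (3.48%) rose and 199 (1.23%) fell (edgeR quasi-likelihood test, Benjamini-Hochberg). Over all genes tested the median log2 fold change was -0.0046, and 48.0% of the genes had a positive one. The largest fitted rise was in FRMPD1, which had 0 counts in all 12 vehicle libraries and was at least 37.6-fold higher with dexamethasone. The largest fall called was a log2 fold change of -0.73, in NLRC5, and this call was lost without any 1 of 19 libraries (edgeR adjusted p up to 0.109) and without replicate number as a covariate (0.188). When a change of more than 1.2-fold was required, 100 genes rose (0.617%) and 0 fell by edgeR glmTreat, the same fit with a minimum size. In the test against no change 2874 genes (17.7%) had an unadjusted p under 0.05 by edgeR, and 305 were lower by DESeq2 after adjustment.

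Most of these changes were small. Among the genes that rose, 460 of 563 had a log2 fold change under 0.5, with a median of 0.25 over the 563. Among those that fell, 196 of 199 lay above -0.5, with a median of -0.15. The smallest change that passed the test was 0.08 on the log2 scale. Between 0.5 and 1 there were 67 genes that rose and 3 that fell, between 1 and 2 there were 22 that rose, and over 2 there were 14, with 0 falls in either of these ranges.

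The size of a rise went with the abundance of the gene. Among the 4049 genes with the lowest means (0.0895 to 1.52 CPM) 1.43% rose, with a median log2 fold change of 0.97. Among the 4049 with the highest (from 51.4 CPM) 4.77% rose, with a median of 0.19. Falls were called in 0.123% of the lowest set and 2.2% of the highest. Few counts limit what can be called in the lowest set.

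The direction of the called genes was shared by the receptors. All 563 genes that rose had a positive log2 fold change in each of the 3 genotypes, and all 199 that fell had a negative one in each, a property that a test of the common effect favours. Within the 12 pairs of a dexamethasone and a vehicle library of the same genotype and number, 286 of the 563 were higher in 12 of 12 pairs, against 1.93% of all genes tested. Of the 199, 62 were lower in 12 of 12 pairs, against 0.531% of all genes tested. The 563 and the 199 were called from these same pairs, which favours such counts, so they are not independent evidence. A clean separation was rarer: 39 genes (0.241%) had all 12 dexamethasone libraries above all 12 vehicle libraries, and 0 genes had them all below.

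The counts leaned on the replicate numbers and on 1 library. Without replicate number as a covariate 190 genes rose (1.17%) and 10 fell (0.0617%), and all of these were among the 563 and the 199. Without K154R dexamethasone replicate 3, the dexamethasone library with the fewest genes detected (23783), 837 genes rose and 569 fell. Leaving it out also moved the counts of several gene lists, and the moved count is given with some of these lists only. Leaving out 1 of 4 other libraries moved the count of falls by more than 1.5 times: it was 117 without K154R dexamethasone replicate 2, 132 without K154R dexamethasone replicate 4, 129 without WT vehicle replicate 4 and 126 without K154Q vehicle replicate 4.

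Promoters of the genes that changed rarely held the receptor's inverted repeat. RefSeq windows of 300 bases (250 before and 50 after an annotated start, GRCh38.p14) were searched on both strands, and 27 of the 38 genes named below for their size or their p matched a window. The full element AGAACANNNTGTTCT was in 0 of 15595 windows of genes tested. The relaxed element GNACANNNTGTNC, which contains every full element, was in 0.263% of them, and in 3 of 687 windows of genes that rose (GNMT, MAP3K6 and TXNIP) and 1 of 243 windows of genes that fell (AMPD2). The call of MAP3K6 was lost without any 1 of 16 libraries (edgeR adjusted p up to 0.103) and that of AMPD2 without any 1 of 2 (up to 0.0592). The hexamer AGAACA, 1 side of the full element, was in 9.94% of windows of genes tested, 10.8% of windows of genes that rose and 9.47% of windows of genes that fell. Among the 38 it was found in the promoters of FKBP5, PDK4, CES4A and NEK2, which are printed with it in capitals (TGTTCT is the same site on the other strand), and TXNIP, chosen after its values were seen, shows the relaxed element.
FKBP5 (chr6:35728578-35728630, minus strand): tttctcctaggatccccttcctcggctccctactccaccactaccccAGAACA
PDK4 (chr7:95596667-95596766, minus strand): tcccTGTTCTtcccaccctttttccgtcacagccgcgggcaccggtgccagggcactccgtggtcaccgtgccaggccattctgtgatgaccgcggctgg
CES4A (chr16:66988387-66988486, plus strand): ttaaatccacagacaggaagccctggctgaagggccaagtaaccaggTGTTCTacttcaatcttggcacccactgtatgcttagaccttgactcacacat
NEK2 (chr1:211675647-211675746, minus strand): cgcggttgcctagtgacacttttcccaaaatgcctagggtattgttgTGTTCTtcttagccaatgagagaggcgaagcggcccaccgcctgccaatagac
TXNIP (chr1:145996699-145996798, minus strand): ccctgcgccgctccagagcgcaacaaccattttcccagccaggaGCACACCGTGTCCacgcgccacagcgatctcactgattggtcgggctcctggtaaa
The FKBP5 hexamer begins at the annotated start itself, that of NEK2 78 bases before it, that of CES4A 155 and that of PDK4 246 bases before it. These are matches of letters, not measured binding, and a window without a match says nothing of elements farther away.

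Among well expressed genes (mean of at least 5 CPM) that rose in 12 of 12 pairs, the largest changes were about 2-fold. SYBU, which encodes syntabulin, a linker of cargo to kinesin motors, had 20.5, 26.2 and 41.6 CPM with dexamethasone and 10.2, 12.2 and 15.2 CPM with vehicle (lowest, median and highest of 12 libraries each). The 2 groups did not overlap, and the log2 fold change was 1.23 (SE 0.05; edgeR quasi-likelihood test, adjusted p = 5.6e-17). PGC, the precursor of the digestive protease gastricsin, had 81.8, 119 and 148 CPM with dexamethasone and 41.5, 53.0 and 76.0 CPM with vehicle, again without overlap (log2 fold change 1.14, SE 0.06; edgeR adjusted p = 7.4e-14).

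FKBP5, an HSP90 cochaperone that lowers the receptor's affinity for hormone and is itself a classic receptor target, had 92.6, 107 and 128 CPM with dexamethasone and 44.1, 51.0 and 58.1 CPM with vehicle. The lowest dexamethasone library thus stood well above the highest vehicle library, and the log2 fold change was 1.06 (SE 0.05; edgeR adjusted p = 2.1e-15). HOMER2, a scaffold of signalling complexes, had 54.9, 72.7 and 79.7 CPM with dexamethasone and 30.9, 34.7 and 40.8 CPM with vehicle (1.01, SE 0.04). CAVIN2, a coat protein of caveolae, had 128, 182 and 218 CPM with dexamethasone and 73.8, 92.5 and 127 CPM with vehicle (0.89, SE 0.04). In neither gene did the groups overlap, though for CAVIN2 the lowest dexamethasone and the highest vehicle library were nearly level.

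NAGS, the mitochondrial enzyme whose product switches on the urea cycle, had 8.96, 11.1 and 15.7 CPM with dexamethasone and 4.89, 5.92 and 7.29 CPM with vehicle, without overlap (log2 fold change 0.91, SE 0.07; edgeR adjusted p = 1.3e-10). TFEB, a transcription factor of lysosomal genes, had 18.8, 22.2 and 30.6 CPM with dexamethasone and 10.9, 13.2 and 17.4 CPM with vehicle, also without overlap (0.74, SE 0.05). CEBPD, a transcription factor of the acute phase, had 18.0, 25.0 and 39.1 CPM with dexamethasone and 9.84, 13.9 and 18.7 CPM with vehicle (0.91, SE 0.07). Here the ranges overlapped, and the dexamethasone library was the higher one in 12 of 12 pairs, which was a condition for naming these genes.

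The other 4 were PTGDR2, a prostaglandin D2 receptor (0.82), NRBP2, a pseudokinase (0.81), CCDC68 (0.75) and SCNN1A, the alpha subunit of the epithelial sodium channel (0.74). Their ranges overlapped between the treatments as well. These log2 fold changes had SEs of 0.06 to 0.07, with edgeR adjusted p of at most 3.5e-09.

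**Figure D1:**
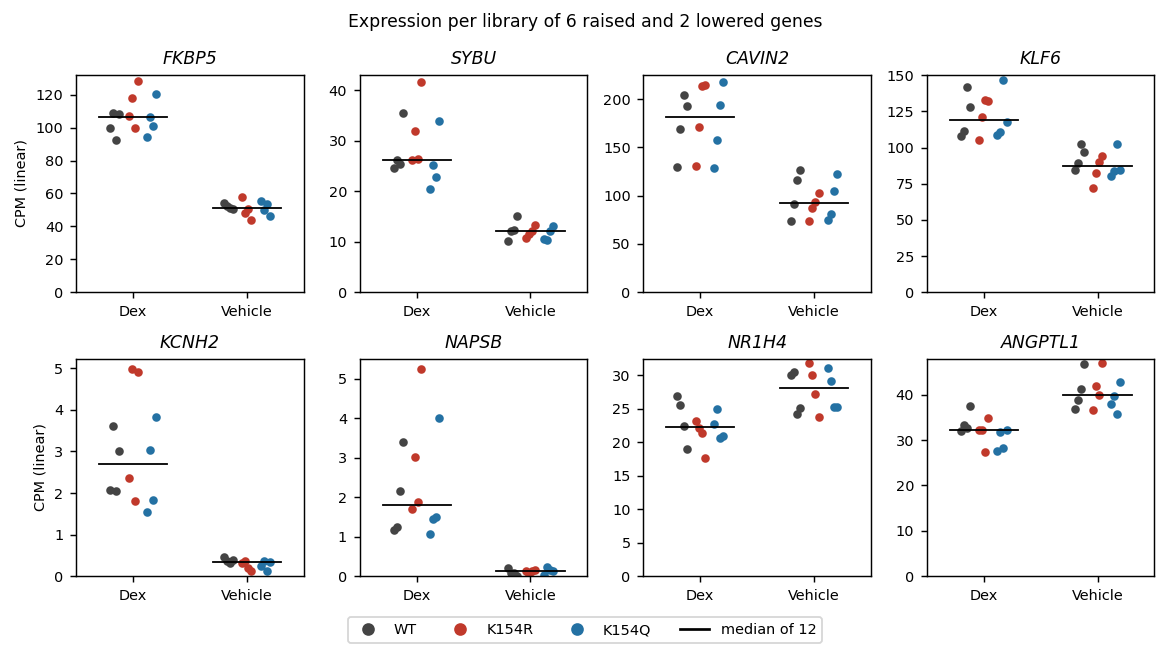
CPM per library (linear axes from 0) of 6 genes that rose and 2 that fell, dexamethasone left of vehicle; points are libraries coloured by receptor genotype, and bars are medians of 12. The groups do not overlap for FKBP5, SYBU, CAVIN2, KLF6, KCNH2 and NAPSB, and overlap for NR1H4 and ANGPTL1.

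The largest relative rises were in genes hardly expressed without hormone, where few counts carry the value. FRMPD1, a regulator of G-protein signalling complexes, had 109 counts over the 12 dexamethasone libraries and 0 over the 12 vehicle libraries, or at least 37.6-fold higher when 3 counts over the 12 vehicle libraries are taken as the floor. Every dexamethasone library held it, at 0.149 to 0.44 CPM. PDK4, the kinase that shuts down pyruvate dehydrogenase when cells burn fat, had 176 counts with dexamethasone and 4 with vehicle. HIF3A, an inhibitory member of the hypoxia-inducible factor family, had 240 counts with dexamethasone and 8 with vehicle. For both genes the lowest dexamethasone library lay above the highest vehicle library.

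NAPSB, an aspartic protease pseudogene, had 1.06, 1.80 and 5.25 CPM with dexamethasone and 0, 0.133 and 0.239 CPM with vehicle (log2 fold change 4.19, SE 0.23; edgeR adjusted p = 8.3e-14). PNMT, which makes adrenaline from noradrenaline and is a known glucocorticoid target of the adrenal medulla, had 1.199, 2.25 and 4.46 CPM with dexamethasone and 0, 0.104 and 0.437 CPM with vehicle (4.14, SE 0.23). KCNH2, a cardiac potassium channel, had 1.55, 2.69 and 4.99 CPM with dexamethasone and 0.119, 0.337 and 0.462 CPM with vehicle (3.21, SE 0.15). All 3 were separated between the treatments, and in each the dexamethasone libraries spread over more than 3-fold among themselves. NAPSB and PNMT, like FRMPD1, PDK4 and HIF3A, could pass the filter on low counts only through their dexamethasone libraries. A difference was thus needed for them to be tested, and their separation is a description.

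CES4A, a carboxylesterase, had 122 counts with dexamethasone and 9 with vehicle, and PPP1R1B, a phosphatase inhibitor known as DARPP-32, had 112 with dexamethasone and 9 with vehicle. The libraries of CES4A did not overlap, while those of PPP1R1B did. Genes of this kind could pass the filter on low counts only through their dexamethasone libraries, so a difference was needed for them to be tested at all. Of the 563 genes that rose, 119 had a mean under 5 CPM, as had 9 of the 199 that fell. Requiring a mean of at least 5 CPM left 10360 genes to test in place of 16196. Scarce genes thus made up a smaller share of both sets than of all genes tested.

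A list of 30 textbook glucocorticoid-induced genes was used to see how much of the classic response these cells gave. Of the 26 tested, 18 rose (69.2%, against 3.48% of all genes tested) and 0 fell (against 1.23%), with a median log2 fold change of 0.42 over the 26 against -0.0046 over all genes. Without replicate number as a covariate 13 rose, and with a mean of at least 5 CPM required 11 rose, since fewer members are then tested. The list was drawn up with earlier results of these data known and is not independent evidence of its direction.

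Feedback regulators of inflammation were among them. TSC22D3, which encodes the anti-inflammatory protein GILZ, had 0.353, 1.03 and 3.83 CPM with dexamethasone and 0.033, 0.185 and 0.501 CPM with vehicle, so that its ranges overlapped although it was higher in 12 of 12 pairs (log2 fold change 2.83, SE 0.21; edgeR adjusted p = 4.4e-11). DUSP1, a phosphatase of MAP kinases, had 12.7, 17.0 and 23.6 CPM with dexamethasone and 9.60, 12.5 and 17.1 CPM with vehicle (0.44, SE 0.05). NFKBIA, the NF-kB inhibitor, had 135, 146 and 177 CPM with dexamethasone and 111, 122 and 150 CPM with vehicle (0.27, SE 0.03). TNFAIP3, a ubiquitin-editing brake on NF-kB, rose by 0.31 (SE 0.04) and BIRC3, a ubiquitin ligase of the same pathway, by 0.32 (SE 0.06). The last 2 lost their calls without replicate number as a covariate (edgeR adjusted p = 0.149 and 0.417).

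Of the metabolic members, ANGPTL4, an inhibitor of lipoprotein lipase, had 1.13, 1.56 and 2.92 CPM with dexamethasone and 0.503, 0.787 and 1.24 CPM with vehicle (1.06, SE 0.12). KLF15 and KLF9, transcription factors of amino acid use and of the hormone response, rose by 0.39 (SE 0.04) and 1.07 (SE 0.17). DDIT4, an inhibitor of mTORC1, rose by 0.43 (SE 0.06) and TAT, tyrosine aminotransferase, by 0.48 (SE 0.10). MT2A, a metallothionein with near-identical relatives and therefore an uncertain value, rose by 0.40 (SE 0.06). DDIT4, TAT and MT2A were no longer called without replicate number as a covariate.

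Not all of the list moved. SGK1, a kinase raised by glucocorticoids in many tissues, had 20.8, 30.7 and 37.5 CPM with dexamethasone and 21.4, 30.8 and 35.9 CPM with vehicle, and its log2 fold change was -0.0026 (SE 0.05; edgeR adjusted p = 0.987). PCK1, the gluconeogenic enzyme PEPCK, had 0.243, 0.659 and 0.97 CPM with dexamethasone and 0.42, 0.78 and 1.17 CPM with vehicle (-0.26, SE 0.16; edgeR adjusted p = 0.418). ZBTB16, a strong target in other cells, had 9 counts over all 24 libraries and was not tested, like CDKN1C (12 counts), IRS2 (6 counts) and TFCP2L1 (51 counts).

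Among rises under 0.5 on the log2 scale at a mean of at least 5 CPM, 8 genes were named for having the smallest p. Their small p is therefore a condition of the choice. KLF6, a stress-responsive transcription factor, had 105, 119 and 147 CPM with dexamethasone and 72.0, 87.0 and 103 CPM with vehicle, with no overlap for a log2 fold change of only 0.46 (SE 0.03; edgeR adjusted p = 3.2e-11). RASSF4, a Ras-association protein, had 72.7, 81.2 and 96.4 CPM with dexamethasone and 55.0, 61.6 and 69.2 CPM with vehicle (0.42, SE 0.03). SAMHD1, which breaks down deoxynucleotides, had 114, 133 and 163 CPM with dexamethasone and 90.1, 96.7 and 110 CPM with vehicle (0.43, SE 0.04). These 3 were separated between the treatments at changes of less than 1.5-fold.

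The other 5 genes chosen for the smallest p among rises under 0.5 overlapped in range. They were SPSB1, a substrate receptor of ubiquitin ligases (0.49), NSDHL, a cholesterol synthesis enzyme (0.47), GRK3, a kinase that desensitises receptors (0.39), FOSL2, an AP-1 subunit (0.35), and CDK19, a kinase of the Mediator complex (0.34). All 8 were higher in 12 of 12 pairs and kept their calls without replicate number as a covariate. FOSL2 and CDK19 did not exceed 1.2-fold by edgeR glmTreat (adjusted p = 0.182 and 0.345).

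Of 18 circadian clock genes tested 2 rose (11.1%, against 3.48% of all genes), 1 fell (5.56%, against 1.23%) and 15 did not pass the test. CRY2 and PER1, repressors of the circadian loop, rose and NR1D2, a nuclear receptor of the same loop, fell. CRY2 had 28.01, 30.1 and 37.4 CPM with dexamethasone and 17.6, 20.2 and 22.1 CPM with vehicle, without overlap (0.64, SE 0.05). PER1 rose by 0.51 (SE 0.06) and NR1D2 fell by 0.19 on the log2 scale (SE 0.04), although NR1D2 was not called without the number covariate (edgeR adjusted p = 0.119), which left 2 genes higher and 0 lower. The median of the list was -0.03.

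Gluconeogenesis and amino acid breakdown are the pathways for which glucocorticoids are named. Of 16 genes tested 4 rose (25%, against 3.48% of all genes), 0 fell, and the median log2 fold change was 0.03. Without replicate number as a covariate 1 rose, against 1.17% of all genes. SLC37A4, the glucose 6-phosphate transporter, had 69.9, 92.5 and 106 CPM with dexamethasone and 67.6, 77.1 and 87.4 CPM with vehicle (0.24, SE 0.03). TAT, HGD of tyrosine breakdown (0.13, SE 0.03) and GPT2, an alanine aminotransferase (0.11, SE 0.03), were the other 3. GPT2 lost its call without any 1 of 10 libraries (edgeR adjusted p up to 0.07). G6PC1, the last step of glucose release, had a log2 fold change of 0.32 (SE 0.10) and missed the threshold (edgeR adjusted p = 0.058).

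In the urea cycle 2 of 10 genes rose (20%, against 3.48% of all genes), NAGS and CPS1, and the median was -0.03. CPS1, the enzyme that NAGS activates through its product, had 67.1, 77.8 and 91.1 CPM with dexamethasone and 61.8, 70.2 and 82.3 CPM with vehicle (0.14, SE 0.03). It was not called without the number covariate (edgeR adjusted p = 0.499).

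Among 26 genes of cholesterol synthesis and uptake 10 rose (38.5%, against 3.48% of all genes tested) and 0 fell. A positive log2 fold change was found in 24 of the 26, against 48.0% of all genes, and the median was 0.12. NSDHL (0.47) was the largest, and SREBF2, the transcription factor of the pathway, had 161, 190 and 204 CPM with dexamethasone and 143, 163 and 185 CPM with vehicle (0.17, SE 0.03). LSS, DHCR7, SQLE, MSMO1, HSD17B7, CYP51A1 and SCAP were also among those that rose, by 0.11 to 0.21.

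This result depended on the replicate numbers. Without number as a covariate 1 of the 26 rose, against 1.17% of all genes, and without the 6 libraries of number 3 there were 5. The median of the list was 0.37 within number 3 and 0.04, 0.07 and 0.04 within numbers 1, 2 and 4. HSD17B7 lost its call without any 1 of 7 libraries, CYP51A1 and SCAP without any 1 of 11, and MSMO1 without K154R vehicle replicate 3 (edgeR adjusted p = 0.0534).

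**Figure D2:**
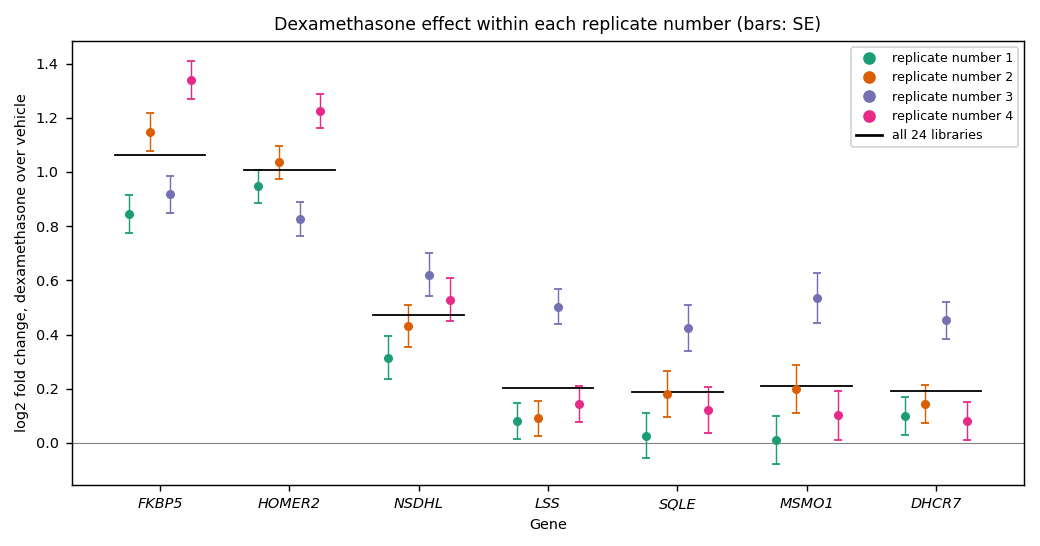
Log2 fold change within each replicate number, with SE bars, for FKBP5, HOMER2 and 5 genes of cholesterol synthesis; the black line is the value over all 24 libraries. FKBP5 and HOMER2 are highest in number 4, while NSDHL, LSS, MSMO1, DHCR7 and SQLE are highest in number 3.

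Of 18 genes of fatty acid oxidation 3 rose (16.7%, against 3.48% of all genes), all acyl-CoA synthetases, which activate fatty acids: ACSL5 (0.30, SE 0.05), ACSL1 (0.24, SE 0.04) and ACSL3 (0.14, SE 0.04). ACSL3 lost its call without K154R dexamethasone replicate 2 (edgeR adjusted p = 0.0532) and without the number covariate. The list median was -0.02. In fatty acid and triglyceride synthesis 0 of 18 genes passed the test in either direction (edgeR, median 0.04), against 4.70% of all genes. At that share 0 calls in 18 genes say little. Among 13 genes of lipid droplets and lipases 2 rose (15.4%, against 3.48% of all genes), ANGPTL4 and LIPG, endothelial lipase (0.86, SE 0.20).

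Of 14 cytochrome P450 and xenobiotic genes 3 rose (21.4%, against 3.48% of all genes). CYP3A43 had 0.731, 1.205 and 2.63 CPM with dexamethasone and 0.357, 0.455 and 0.689 CPM with vehicle, without overlap (1.30, SE 0.18). CYP3A5 rose by 0.34 (SE 0.07) and NR1I2, the xenobiotic receptor PXR that drives CYP3A genes, by 0.18 (SE 0.04). The CYP3A genes are related in sequence and the handling of multi-mapping reads is not given, so their separate values are uncertain.

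Of 15 MAP kinase phosphatases and feedback genes 3 rose (20%, against 3.48% of all genes), with a median of -0.03. ERRFI1, an inhibitor of the EGF receptor whose promoter is shared with an antisense transcript, had 275, 388 and 451 CPM with dexamethasone and 199, 254 and 310 CPM with vehicle (0.56, SE 0.04; edgeR adjusted p = 3.2e-11). DUSP1 and DUSP6 (0.21, SE 0.05) were the other 2, and DUSP6 was not called without the number covariate (edgeR adjusted p = 0.799).

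Of 21 insulin and growth signalling nodes 5 rose (23.8%, against 3.48% of all genes) and 1 fell (4.76%, against 1.23%), and 0 passed in either direction without the number covariate. INSR, the insulin receptor, had 103, 134 and 146 CPM with dexamethasone and 99.3, 109 and 132 CPM with vehicle (0.20, SE 0.04), and FOXO3, a transcription factor that insulin shuts out of the nucleus, rose by 0.18 (SE 0.04). DDIT4, GRB10, an adaptor that dampens insulin signals (0.18, SE 0.05), and TRIB3 (0.17, SE 0.05) also rose, and TRIB1 fell by 0.13 on the log2 scale (SE 0.03). TRIB3 lost its call without K154R dexamethasone replicate 4, K154Q dexamethasone replicate 1 or K154R vehicle replicate 3 (edgeR adjusted p up to 0.0636).

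In the endoplasmic reticulum folding list 4 of 20 genes rose (20%, against 3.48% of all genes), 20 of 20 had a positive log2 fold change (against 48.0%), and the median was 0.08. HERPUD1, a component of protein degradation there, had 78.3, 92.6 and 109 CPM with dexamethasone and 67.0, 77.0 and 89.2 CPM with vehicle (0.22, SE 0.04). HYOU1 and DNAJB9, chaperones of that compartment, and ERN1, a sensor of unfolded proteins, rose by 0.13, 0.18 and 0.19, and HERPUD1 alone was called without the number covariate. ERN1 lost its call without any 1 of 11 libraries (edgeR adjusted p up to 0.0789).

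Of 30 genes of DNA replication 1 rose and 1 fell (3.33% each), against 3.48% and 1.23% of all genes, so the share of rises was near that of all genes. ATAD2, a bromodomain ATPase of chromatin that cells express in S phase, had 290, 316 and 340 CPM with dexamethasone and 187, 223 and 246 CPM with vehicle, with no overlap (0.51, SE 0.03; edgeR adjusted p = 2.2e-13). POLE2, a subunit of a replicative polymerase, fell (-0.12, SE 0.03), a call lost without any 1 of 17 libraries, and the list median was -0.05. RFC3 of the same list fell when K154R dexamethasone replicate 3 was left out (edgeR adjusted p = 0.02). In the lysosome and autophagy list 2 of 27 genes rose (7.41%, against 3.48% of all genes), TFEB and WIPI1 (0.15, SE 0.04). In the same list 1 fell (3.7%, against 1.23% of all genes), SQSTM1 (-0.12, SE 0.03), and the median was 0.02. WIPI1 lost its call without any 1 of 3 libraries and SQSTM1 without any 1 of 4.

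**Figure D3:**
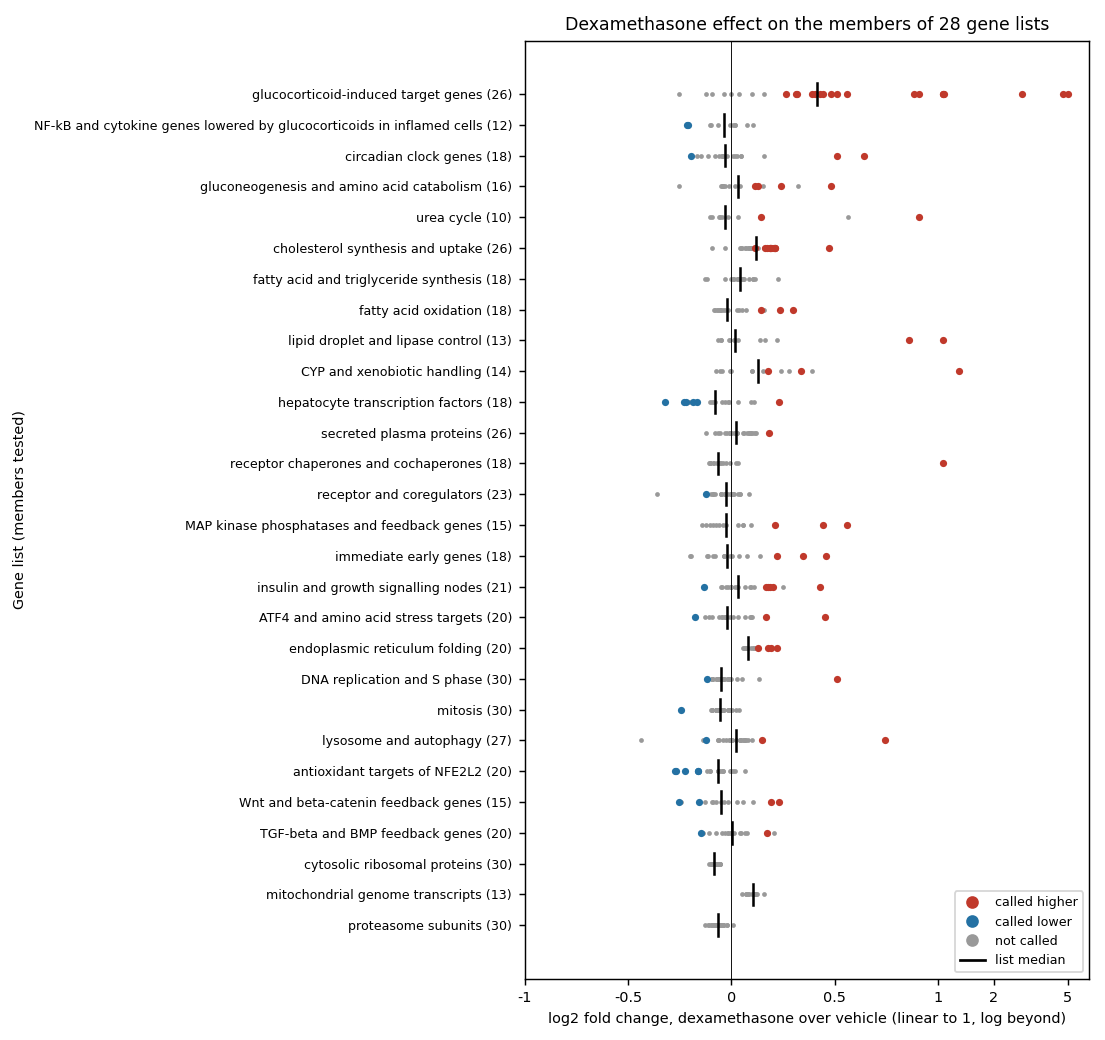
Log2 fold change, dexamethasone over vehicle (linear to 1, log beyond), of the tested members of 28 gene lists, with the number tested in brackets; red members rose, blue members fell, grey members did not pass the test and black bars are list medians. The glucocorticoid-induced list lies farthest to the right (median 0.42), and the medians of the cholesterol list (0.12) and the hepatocyte transcription factors (-0.08) lie on opposite sides of 0.

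Genes that fell did so by little, and all 10 with the smallest p overlapped in range between the treatments. ANGPTL1, a secreted angiopoietin-like protein, had 27.3, 32.2 and 37.4 CPM with dexamethasone and 35.7, 39.9 and 47.0 CPM with vehicle (log2 fold change -0.35, SE 0.03; edgeR adjusted p = 6.9e-09). NR1H4, which encodes the bile acid receptor FXR, had 17.6, 22.3 and 26.9 CPM with dexamethasone and 23.8, 28.2 and 31.8 CPM with vehicle (-0.32, SE 0.04; edgeR adjusted p = 2.3e-07). In both genes the dexamethasone library was the lower one in 12 of 12 pairs, and both kept their calls without the number covariate.

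NEK2, a centrosome kinase of mitosis, had 29.6, 36.8 and 44.0 CPM with dexamethasone and 37.2, 43.4 and 48.0 CPM with vehicle (-0.24, SE 0.03). VAV3, a guanine nucleotide exchange factor, had 35.3, 39.8 and 47.3 CPM with dexamethasone and 41.7, 47.0 and 52.9 CPM with vehicle (-0.25, SE 0.03). VSNL1, a neuronal calcium sensor, had 49.98, 58.6 and 64.2 CPM with dexamethasone and 60.9, 68.2 and 76.0 CPM with vehicle (-0.23, SE 0.03). All 3 were lower in 12 of 12 pairs and kept their calls without the number covariate.

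HAGLR, a long noncoding RNA of the HOXD cluster (-0.28), MPV17L, a small organelle membrane protein (-0.17), and SOX4, a developmental transcription factor (-0.19), passed with number as a covariate. They did not pass without it (edgeR adjusted p = 0.162, 0.143 and 0.164). HAGLR overlaps genes on the other strand, and since the sources used here give no strand setting for the counting its value is uncertain.

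Of 18 hepatocyte transcription factors tested 5 fell (27.8%, against 1.23% of all genes) and 1 rose (5.56%, against 3.48%), and the median log2 fold change was -0.08. Without the number covariate 2 fell, NR1H4 and FOXA3, and 1 rose, against 0.0617% and 1.17% of all genes. Besides NR1H4, CEBPA had 72.1, 93.6 and 106 CPM with dexamethasone and 87.4, 105 and 125 CPM with vehicle (-0.23, SE 0.04), and FOXA3 had 20.2, 23.9 and 29.3 CPM with dexamethasone and 24.6, 28.3 and 31.7 CPM with vehicle (-0.22, SE 0.04). The pioneer factor FOXA2 (-0.18, SE 0.04) and the orphan receptor NR2F1 (-0.16, SE 0.04) fell in 12 of 12 pairs as well. TBX3, a T-box repressor, rose by 0.23 (SE 0.03).

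HNF4A, a central factor of the same list, did not pass the test, with a log2 fold change of -0.03 (edgeR adjusted p = 0.567). Secreted plasma proteins, the main product of these cells, had 1 of 26 genes rise (3.85%, near the 3.48% of all genes), AFP at 0.18 (SE 0.04), 0 fall, and a median of 0.02. AFP was not called without the number covariate (edgeR adjusted p = 0.0836).

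The antioxidant regulator NFE2L2 and some of its targets fell. NFE2L2, which switches on genes against oxidative stress, had 207, 239 and 250 CPM with dexamethasone and 243, 266 and 304 CPM with vehicle (-0.16, SE 0.03; edgeR adjusted p = 0.00026). AKR1C1, a ketosteroid reductase, had 334, 408 and 524 CPM with dexamethasone and 450, 485 and 616 CPM with vehicle (-0.27, SE 0.04), and HMOX1, heme oxygenase, had 29.7, 41.0 and 53.4 CPM with dexamethasone and 34.8, 47.8 and 72.3 CPM with vehicle (-0.27, SE 0.05). These 3 were lower in 12 of 12 pairs.

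In that list, which includes NFE2L2, 5 of 20 genes fell (25%, against 1.23% of all genes), 0 rose and the median was -0.06. AKR1B10 (-0.22, SE 0.06) and AKR1C2 (-0.16, SE 0.04) were the other 2, and AKR1C1 and AKR1C2 share so much sequence that their separate values are uncertain. The count was 2 without the number covariate, NFE2L2 and AKR1C1, against 0.0617% of all genes. It was 8 without K154R dexamethasone replicate 3, in a fit where 569 of 16483 genes tested fell. AKR1C2 lost its call without any 1 of 10 libraries (edgeR adjusted p up to 0.0706). Within number 3 the list median was 0.07, and within numbers 1, 2 and 4 it was -0.07, -0.09 and -0.21.

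Of 24 listed NF-kB and cytokine genes that glucocorticoids lower in inflamed cells, 12 had counts enough to be tested. Among the 12, 0 rose and 2 fell (16.7%, against 1.23% of all genes), with a median of -0.04. BCL3, a nuclear cofactor of NF-kB, had 11.8, 16.8 and 19.0 CPM with dexamethasone and 15.4, 18.9 and 22.6 CPM with vehicle (-0.21, SE 0.05). EDN1, the vasoconstrictor endothelin, had 19.4, 26.8 and 51.4 CPM with dexamethasone and 20.4, 33.2 and 59.96 CPM with vehicle (-0.21, SE 0.06). Neither was called without the number covariate, and EDN1 lost its call without any 1 of 7 libraries (edgeR adjusted p up to 0.0748).

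Of 15 Wnt feedback genes tested 2 rose and 2 fell (13.3% each, against 3.48% and 1.23% of all genes). Without the number covariate 1 rose and 0 fell, against 1.17% and 0.0617% of all genes. TBX3 and KREMEN1 (0.19, SE 0.03) rose and SP5 (-0.16, SE 0.04) and DKK1 (-0.25, SE 0.07), a secreted Wnt antagonist, fell. SP5 lost its call without any 1 of 5 libraries and DKK1 without any 1 of 7. In the mitosis list NEK2 was the single 1 of 30 genes that fell (3.33%, against 1.23% of all genes), and 0 rose. A positive log2 fold change was found in 3 of 30, against 48.0% of all genes (median -0.06). Without K154R dexamethasone replicate 3, 5 of the 30 fell, in a fit where 569 of 16483 genes tested fell.

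Over all genes tested 3.48% rose and 1.23% fell, and the shares of 3 further lists are set beside these. Of 18 immediate early genes KLF6, FOSL2 and ZFP36, an mRNA decay factor (0.22, SE 0.06), rose (16.7%) and 0 fell (median -0.02). Of 20 targets of ATF4 and amino acid stress TRIB3 and VLDLR, a lipoprotein receptor (0.45, SE 0.13), rose and PSPH, the last enzyme of serine synthesis (-0.18, SE 0.04), fell, or 10% and 5% of the list (median -0.02). Of 20 TGF-beta and BMP feedback genes TGFBR1, a receptor (0.17, SE 0.04), rose and FST, the activin antagonist follistatin (-0.15, SE 0.04), fell, or 5% each (median 0.00109). ZFP36 lost its call without any 1 of 7 libraries, VLDLR without any 1 of 5 and FST without any 1 of 16. Without the number covariate 2 immediate early genes rose, ZFP36 not among them (edgeR adjusted p = 0.758), and 0 genes of the ATF4 and TGF-beta lists passed in either direction.

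The machinery lists showed no called member in the reported fit. Over all genes tested 3.48% rose, 1.23% fell and 48.0% had a positive log2 fold change in that fit. At such shares 0 calls in lists of this size say little. Of 30 cytosolic ribosomal protein genes 0 passed the test and 0 had a positive log2 fold change, with a median of -0.08 (edgeR). Of 30 proteasome subunits 0 passed and 1 was positive (median -0.06). When K154R dexamethasone replicate 3 was left out 8 of them fell, in a fit where 569 of 16483 genes tested fell. Of 13 mitochondrial genome transcripts 0 passed and 13 were positive (median 0.10), beside the mitochondrial shares given above. With K154R dexamethasone replicate 3 left out, RPS6 of the ribosomal list fell (edgeR adjusted p = 0.0393). ND4L of the mitochondrial list then rose (edgeR adjusted p = 0.0179).

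Within numbers 1 to 4 the ribosomal median was -0.09, -0.09, 0.03 and -0.18 and the proteasome median -0.08, -0.08, 0.03 and -0.14. The mitochondrial median was 0.04, 0.07, 0.09 and 0.21 within the numbers, and 0.27, -0.01 and 0.05 in WT, K154R and K154Q. The WT pair of number 4 stood out: ND4L, ND1 and ND4 differed there by 0.85, 0.72 and 0.79 in log2 CPM. In number 4 they differed by -0.07, -0.10 and -0.13 in K154R and by 0.14, 0.03 and 0.07 in K154Q. WT vehicle replicate 4 had the lowest mitochondrial share of all libraries (5.16%). Whether the ribosomal, proteasome and mitochondrial shifts enter the small changes of other genes was not tested.

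Of 18 receptor chaperones and cochaperones FKBP5 was the single one that rose (5.56%, against 3.48% of all genes), 0 fell and the median was -0.06. DNAJA1 and DNAJB1 of this list fell when K154R dexamethasone replicate 3 was left out (edgeR adjusted p = 0.02 and 0.0301). Of 23 genes for the receptor and its coregulators 0 rose and 1 fell (4.35%, against 1.23% of all genes). That gene was HDAC1, a histone deacetylase, with 131, 143 and 155 CPM with dexamethasone and 138, 153 and 180 CPM with vehicle (-0.12, SE 0.02). HDAC1 was not called without the number covariate (edgeR adjusted p = 0.446). HDAC2 fell when WT dexamethasone replicate 2, K154R dexamethasone replicate 3 or K154Q vehicle replicate 2 was left out (edgeR adjusted p down to 0.0324).

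The size of the effect was compared between genotypes and between replicate numbers by interaction terms. Between genotypes 0 genes differed after adjustment (edgeR quasi-likelihood test), 320 (1.98%) had an unadjusted p under 0.05, and 0 differed by DESeq2 after adjustment. Over the 563 genes that rose, the median log2 fold change was 0.28 in K154R, 0.23 in K154Q and 0.24 in WT, and over the 199 that fell it was -0.16, -0.12 and -0.16 in the same order. The genes were chosen on the mean of the 3, so these medians are a description.

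TFEB had the smallest genotype p of the 12 large, well expressed rises (unadjusted p = 0.0074), at log2 fold changes of 0.96 in K154R, 0.70 in K154Q and 0.57 in WT. PNMT had 4.54 in K154R, 3.25 in K154Q and 5.06 in WT (unadjusted p = 0.031). DUSP1 had 0.59 in K154R, 0.52 in K154Q and 0.22 in WT (SE 0.06 each; unadjusted p = 0.00058). None of the 3 differences passed after adjustment over all genes.

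Between replicate numbers 0 genes differed after adjustment by edgeR and 4 by DESeq2, and 335 did at an unadjusted p under 0.05 by edgeR (2.07%). FKBP5 had log2 fold changes of 0.85, 1.15, 0.92 and 1.34 (SE 0.07 each) within numbers 1, 2, 3 and 4, with an unadjusted p of 1.1e-04 by edgeR that became 0.922 after adjustment. LSS, lanosterol synthase, had 0.08, 0.09, 0.50 and 0.14 (SE 0.07 each; unadjusted p = 2.8e-04, adjusted p = 0.967). Over the 563 genes that rose the median was 0.22, 0.26, 0.20 and 0.31 within numbers 1 to 4, and over the 199 that fell it was -0.13, -0.14, -0.13 and -0.21, so number 4 had the largest of both. Of the 563, 545 were positive within all 4 numbers, and of the 199, 194 were negative within all 4. The genes were called on the same libraries, which favours 1 sign in all numbers, so these counts are a description.

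**Figure D4:**
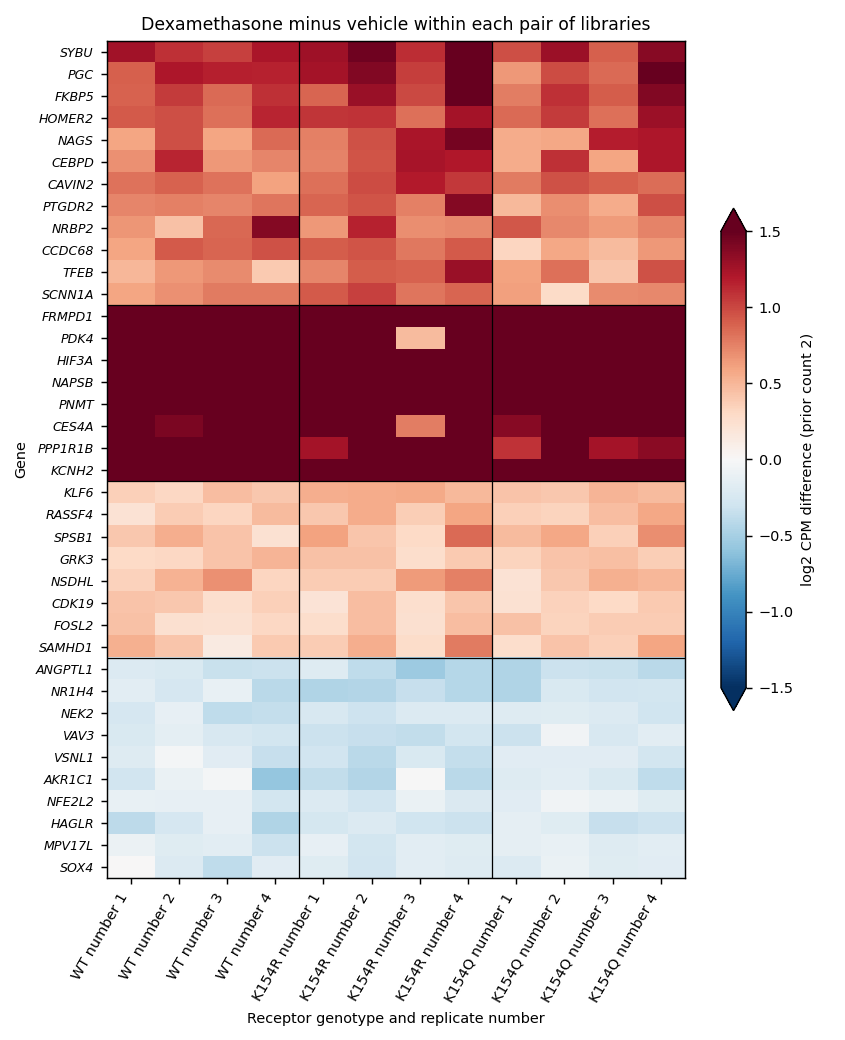
Difference in log2 CPM (prior count of 2), dexamethasone minus vehicle, in each of the 12 pairs of 1 genotype and replicate number for the 38 named genes; lines divide large rises, rises at low CPM, small rises and falls. The 28 genes that rose are above 0 in every pair, and of the 10 that fell SOX4 is above 0 in 1 pair. The large rises were named only if higher in every pair. The other genes were chosen by size or p from these same pairs, so the shared signs are a description.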

How the data were processed

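The authors deposited 1 table of raw read counts per gene, not normalized, for all 24 libraries. Per the submitters' processing notes, reads were handled with bcl2fastq 2.20.0.422, cutadapt 3.7, STAR 2.7.6a, GRCh38.p13 and featureCounts 2.0.3. The sources used here do not give the annotation release, the strand setting or the handling of multi-mapping reads. Of 60683 genes, 37960 had a count, and filterByExpr with the 6 groups kept 16196.

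Counts were analysed with edgeR 4.0.16 in R 4.3.3: TMM scaling and a quasi-likelihood fit with genotype, replicate number and treatment as additive terms (17 residual degrees of freedom), with Benjamini-Hochberg adjusted p under 0.05 over all genes tested. CPM values are TMM-scaled. SE was worked back from the log2 fold change and F. Interaction terms tested differences between numbers and between genotypes. Replicates differed by more than counting error (lowest chi-square per degree of freedom 11.2). Floors of 3 counts cover counting error only. The script was tested on simulated data.

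Genes were named by rule: the 12 largest rises at 5 CPM or more and in 12 of 12 pairs, the 8 largest below 5 CPM, the 8 with the smallest p among rises under 0.5, the 10 falls with the smallest p, up to 3 members of each of 32 lists with the smallest p, and NR3C1. Other list members named had passed the test, and some members are not reported here. Members, lists and tests were chosen with earlier results of these data known. Promoter windows are from a RefSeq table (27303 genes, GRCh38.p14). Alternatives used DESeq2 1.42.0, limma 3.58.1, other scaling, filters and blocks, and libraries, numbers or genotypes left out.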

Additional observations from a re-analysis of the deposited data

Results flagged for a closer look

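In 129 sets of 4 replicates 1 value was compared with the other 3, and 6 lay far from them by Dixon's criterion. Most sets held the differences in log2 CPM (dexamethasone minus vehicle, prior count of 2) of the 4 pairs of 1 genotype. The rest held the library totals or mitochondrial shares of 1 group. All 6 values were differences of pairs. Chance alone marks about 1 set in 20. PDK4 in K154Q number 4 differed by 3.643, against 2.162 to 2.41 in the other 3 pairs. FRMPD1 in K154Q number 1 differed by 1.926, against 2.219 to 2.274. Both rest on few counts.

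NRBP2 in K154R number 2 differed by 1.15, against 0.6466 to 0.7151 in the other 3 pairs, and PGC in WT number 1 by 0.8939, against 1.16 to 1.213. Among genes that fell, NFE2L2 in WT number 4 differed by -0.2812, against -0.1254 to -0.1093, and VSNL1 in K154Q number 4 by -0.2736, against -0.1739 to -0.1694. All 6 pairs have the direction of the whole comparison.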

How the results depend on the processing

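With 563 genes higher and 199 lower in the reported fit, edgeR without the replicate block called 190 and 10, and with a replicate block within each genotype 800 and 365. DESeq2 called 305 lower, and requiring more than 1.2-fold left 100 higher and 0 lower. Leaving out 1 library at a time gave 457 to 837 higher and 117 to 569 lower, with the highest counts in both directions without K154R dexamethasone replicate 3. Without all libraries of number 1, 96 were lower. Without number 2 there were 359 higher and 78 lower, without number 3 there were 358 lower, and without number 4 there were 298 higher and 32 lower. Without the WT genotype 74 were lower, without K154R 330 were higher and 52 lower, and without K154Q 333 were higher and 66 lower. With no filter on low counts 21 genes differed between numbers and 3 between genotypes, and DESeq2 called 4 between numbers. Leaving out 1 library at a time gave 0 in both tests. The share of higher calls, 73.9% in the reported fit, was 59.5% without K154R dexamethasone replicate 3, 95% without the replicate block and 90.3% without number 4. The cause of these shifts was not tested.

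Whether the numbers pair libraries was checked from deviations from group means. Of 60 same-number pairs of libraries across groups 55 had a correlation over 0.1 (median 0.347, against -0.126 for different numbers). Of the 12 pairs of dexamethasone and vehicle in 1 genotype, 11 had one over 0.1, and the lowest was 0.0504. The numbers therefore do not pair every library by that measure, and the block is reported because the comparison was defined with it.

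Of 182 single genes followed under these alternatives, 0 values of 7028 changed direction with a call, 645 lost and 65 gained a call, and 120 of the 148 called genes among them kept their calls without each single library. Of 2496 counts of list members, 2193 stayed within 1.5 times. Among the called genes followed, FAM167B lost its call without any 1 of 20 libraries, NLRC5 of 19 and POLE2 of 17. A miss of the threshold does not show that a gene was unchanged.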

Other observations

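The genes in these paragraphs were chosen after their values were seen. IFNGR1, a chain of the interferon gamma receptor, had 184, 260 and 370 CPM with dexamethasone and 114, 173 and 232 CPM with vehicle (lowest, median and highest of 12), a log2 fold change of 0.63 (SE 0.05; edgeR adjusted p = 3e-10). IL6R, the interleukin 6 receptor, had 100.4, 115 and 144 CPM with dexamethasone and 75.0, 88.6 and 101 CPM with vehicle (0.42, SE 0.04). IL1RAP, a subunit of the interleukin 1 receptor (0.36, SE 0.04), and the kinases JAK2 (0.40, SE 0.05) and JAK1 (0.30, SE 0.03) rose too, each in 12 of 12 pairs and also without replicate number as a covariate. IL6ST, the shared signalling chain of interleukin 6 receptors, rose by 0.18 (SE 0.04) and was not called without that covariate (edgeR adjusted p = 0.63). STAT3, a transcription factor that these kinases activate, rose by 0.11 (SE 0.03), a call lost without any 1 of 8 libraries (edgeR adjusted p up to 0.0718). IL34, a cytokine, and SOCS2, a feedback inhibitor, fell by 0.32 (SE 0.08) and 0.35 (SE 0.09) on the log2 scale. STAT3, IL34 and SOCS2 were not called without that covariate (edgeR adjusted p = 0.251, 0.0908 and 0.634).

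PARP9 (0.51, SE 0.04), PARP14 (0.37, SE 0.04) and DTX3L (0.27, SE 0.03), which act together in ADP-ribosylation, rose in 12 of 12 pairs. APOL2, a lipid-binding protein, had 36.3, 46.4 and 61.0 CPM with dexamethasone and 23.6, 29.8 and 45.3 CPM with vehicle (0.59, SE 0.04), and its near relative APOL1, for which reads may be shared, rose by 0.43 (SE 0.06). PLXNA2, a semaphorin receptor, rose by 0.54 (SE 0.06), and PLXNB2, PLXNC1 and PLXNA3 by 0.19, 0.31 and 0.26.

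At low abundance, UPP2, a uridine phosphorylase, had 811 counts over 12 libraries with dexamethasone and 97 with vehicle, OTULINL had 1717 with dexamethasone and 350 with vehicle, IP6K3, an inositol phosphate kinase, had 468 with dexamethasone and 80 with vehicle, and SFRP5, a secreted Wnt antagonist, had 384 with dexamethasone and 114 with vehicle. Among falls, HES1, a Notch target, fell by 0.30 on the log2 scale (SE 0.06), FABP1, the fatty acid carrier of liver, by 0.29 (SE 0.07), and LGALS2, a galectin, by 0.31 (SE 0.06). These 3 were not called without replicate number as a covariate (edgeR adjusted p = 0.15, 0.77 and 0.14).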
